A study of Mus musculus with 6 samples.

Results

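Mitochondria divide, fuse and are cleared by autophagy, and RNA of 9 genes of these processes was followed in small extracellular vesicles (sEV) of mouse neurons. The genes were Pink1 and Usp30 (mitophagy), Mfn1, Mfn2 and Opa1 (fusion), Dnm1l and Fis1 (fission), and Immt and Chchd3 (cristae). They are 9 of the 53379 genes in the deposited tables and were chosen by name, with their levels in these libraries already known. Their differences between the groups are therefore given as a description, and the fit's calls on them support nothing. All 9 were found by symbol in GENCODE M21 and all 9 passed the filter of a mean of at least 1 FPKM over the 6 libraries (the authors' fragment count scaled to gene length and to the library total). Every member was detected in every library.

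The vesicles came from wild-type (WT) primary embryonic cortical neurons, in 3 libraries from control cultures (NorEV, called normoxic in the series' design text) and 3 labelled OGD/R (HypEV here). That the OGD/R libraries are those the design text calls hypoxic is inferred from control being the only other label. The labels do not spell out OGD/R, do not say how long it lasted or how the vesicles were isolated, and do not say whether replicates came from separate cultures, so the spread between libraries may be technical. Whether less of an RNA in a library reflects fewer vesicles carrying it or less of it in each cannot be told apart. Markers did not single out neurons: neuronal markers had medians of 5.45 to 14.0 FPKM per library and markers of liver, muscle and pancreas 4.06 to 11.5, and no marker of the 6 lists checked was at 0 in all libraries. The 9 neuronal markers summed to 77.1 to 110 FPKM in NorEV and 63.8 to 98.1 in HypEV, and the 7 endothelial and mural markers to 121 to 155 and 43.2 to 108. Sums ran from 66.5 to 89.5 and 39.3 to 87.9 for astrocytes, 49.9 to 76.8 and 52.3 to 86.2 for microglia, 52.2 to 71.1 and 24.4 to 67.5 for the oligodendrocyte lineage, and 99.0 to 178 and 40.8 to 148 for the tissues outside the brain. The part of such RNA in the differences below was not tested.

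Mitophagy is the autophagic removal of damaged mitochondria. The kinase PINK1 accumulates on them and phosphorylates ubiquitin, ubiquitin chains on the outer membrane then mark them for removal, and the deubiquitinase USP30 trims those chains. Mitofusins (MFN1 and MFN2) fuse outer membranes and OPA1 fuses inner membranes, while DRP1, the product of Dnm1l, is drawn to the surface to constrict and divide the organelle. FIS1 is an outer membrane protein of the fission machinery. MIC60 (Immt) and MIC19 (Chchd3) are core subunits of MICOS, the complex that holds crista junctions open. Neurons depend on these processes because their mitochondria must be distributed along axons and replaced far from the cell body.

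Usp30, Chchd3 and Opa1 had the lowest HypEV means relative to NorEV, at 0.306, 0.272 and 0.367 of them, and Fis1 stood high in both groups. The promoters of these 4 genes are shown because their levels set the pattern described here. The annotated Usp30 gene starts upstream of its RefSeq window, which lies inside it. Each window runs from 250 bases before to 50 after a RefSeq start (GRCm38.p6), 5′ to 3′ on the gene's strand: Usp30 at chr5:114100083-114100382 (plus), Chchd3 at chr6:33060211-33060510 (minus), Opa1 at chr16:29579084-29579383 (plus) and Fis1 at chr5:136953025-136953324 (plus; the first of 2 windows listed for it). Capitals mark matches, on either strand, to ACGTG (the core of elements bound by HIF), GCATGCGC (part of the NRF1 element), CCAAT (the NF-Y box), CCGGAAG (the core of ETS factor elements) and ACTACAA (the start of the ZNF143 element).
Usp30: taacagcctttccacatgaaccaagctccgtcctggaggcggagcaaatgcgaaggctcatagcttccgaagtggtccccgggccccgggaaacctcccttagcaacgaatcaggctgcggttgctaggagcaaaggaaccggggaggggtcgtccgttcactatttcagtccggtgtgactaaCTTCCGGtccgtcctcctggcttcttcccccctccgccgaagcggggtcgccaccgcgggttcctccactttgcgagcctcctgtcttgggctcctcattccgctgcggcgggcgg
Chchd3: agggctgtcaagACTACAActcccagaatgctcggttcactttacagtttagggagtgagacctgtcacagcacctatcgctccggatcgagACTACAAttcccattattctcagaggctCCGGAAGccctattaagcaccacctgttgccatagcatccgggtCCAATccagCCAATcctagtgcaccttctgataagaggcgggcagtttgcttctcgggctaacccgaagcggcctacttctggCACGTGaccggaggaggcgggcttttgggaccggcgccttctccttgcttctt
Opa1: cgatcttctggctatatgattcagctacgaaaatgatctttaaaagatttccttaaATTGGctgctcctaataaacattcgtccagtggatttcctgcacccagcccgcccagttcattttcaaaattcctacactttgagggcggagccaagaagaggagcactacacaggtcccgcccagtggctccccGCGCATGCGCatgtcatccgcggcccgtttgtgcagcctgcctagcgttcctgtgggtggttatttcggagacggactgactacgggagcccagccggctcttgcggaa
Fis1: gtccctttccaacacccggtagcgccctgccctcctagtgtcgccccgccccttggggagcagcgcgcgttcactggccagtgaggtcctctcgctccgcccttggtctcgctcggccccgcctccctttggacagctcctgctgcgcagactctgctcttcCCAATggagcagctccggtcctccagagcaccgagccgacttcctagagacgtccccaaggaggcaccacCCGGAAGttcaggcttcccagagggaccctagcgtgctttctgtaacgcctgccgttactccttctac

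The Chchd3 window held 7 matches, among them ACGTG read on both strands of a single CACGTG, and that of Usp30 held 1, to CCGGAAG. Opa1 held GCATGCGC, read on both strands of overlapping letters. Over the 13 windows that RefSeq lists for the 9 genes, CCGGAAG was in 7 (6 of the 9 genes), against 8.86% of all 32851 windows of the same length. ACGTG was in 3 (Chchd3 and Mfn2; 19.6% of all windows) and CCAAT in 6 (37.4%). ACTACAA was in 3 (Chchd3 and Mfn2; 3.24%) and GCATGCGC in 1 (Opa1; 2.71%). The windows of 1 gene can overlap and share a match, and a match shows only that the letters are present.

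A family of short entries took up an unequal part of the reads, and FPKM values move with it. Gm23935 and 5 near-identical genes took 4.34%, 0.561% and 0.303% of reads from NorEV 1, 2 and 3, against 49.6%, 1.97% and 24.5% in HypEV 1, 2 and 3. FPKM divides by the total, and the median FPKM of protein-coding genes was 6.72, 7.24 and 8.21 across NorEV, and 3.53, 8.22 and 5.05 across HypEV. Among all 44125 genes tested, the median log2 fold change of HypEV over NorEV was -0.44. The 9 genes are therefore also shown relative to the coding median of their own library, a ratio that does not depend on the total. Other genes below are given in FPKM unless stated otherwise, so not every separation of their groups is given on that scale. The part of the family in each difference was not tested beyond the scalings given here. The library totals recovered from the steps between values ran from 1092724 to 2141611 fragments on genes.

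Usp30, the deubiquitinase that opposes mitophagy, lies on chromosome 5 from 114065461 to 114124720 (ENSMUSG00000029592, plus strand; gene positions here are those of GENCODE M21 on GRCm38, since the build used for the deposited values is not given in the sources used here). It measured 54.5, 78.2 and 49.6 FPKM in NorEV 1, 2 and 3, against 8.42, 32.6 and 14.8 in HypEV 1, 2 and 3, so every HypEV library was below every NorEV library. The means were 60.7 ± 15.3 and 18.6 ± 12.5 FPKM (SD, n = 3). HypEV 2 was the highest of the HypEV libraries. These values rested on 274, 509 and 341 reads across NorEV and 83, 217 and 90 in HypEV. Relative to the coding median Usp30 stood at 8.11, 10.8 and 6.04 across NorEV, and at 2.39, 3.96 and 2.93 across HypEV, again without overlap. Scaled to the reads outside the family (RPM), it had 284 ± 69.4 RPM in NorEV and 107 ± 40.7 RPM in HypEV. Among 50 genes named Usp with a number, a group looked up after the values were seen, Usp30 ranked 2 by NorEV mean, after Usp22 (97.2 FPKM), and 3 in HypEV, after Usp22 and Usp33.

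Pink1, the kinase that starts the pathway, lies on chromosome 4 from 138313409 to 138326307 (minus strand). It measured 7.32, 4.77 and 4.51 FPKM over the NorEV libraries and 3.93, 4.08 and 6.38 over the HypEV libraries, on only 14 to 20 reads per library. The groups overlapped, with means of 5.53 ± 1.56 and 4.79 ± 1.37 FPKM. Pink1 lay near the coding median, at 0.549 to 1.09 of it in NorEV and 0.496 to 1.26 in HypEV. Within a library Usp30 was above Pink1 by 7.44 to 16.4 times in NorEV, and by 2.14, 8.0 and 2.32 times in HypEV 1, 2 and 3.

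**Figure D1:**
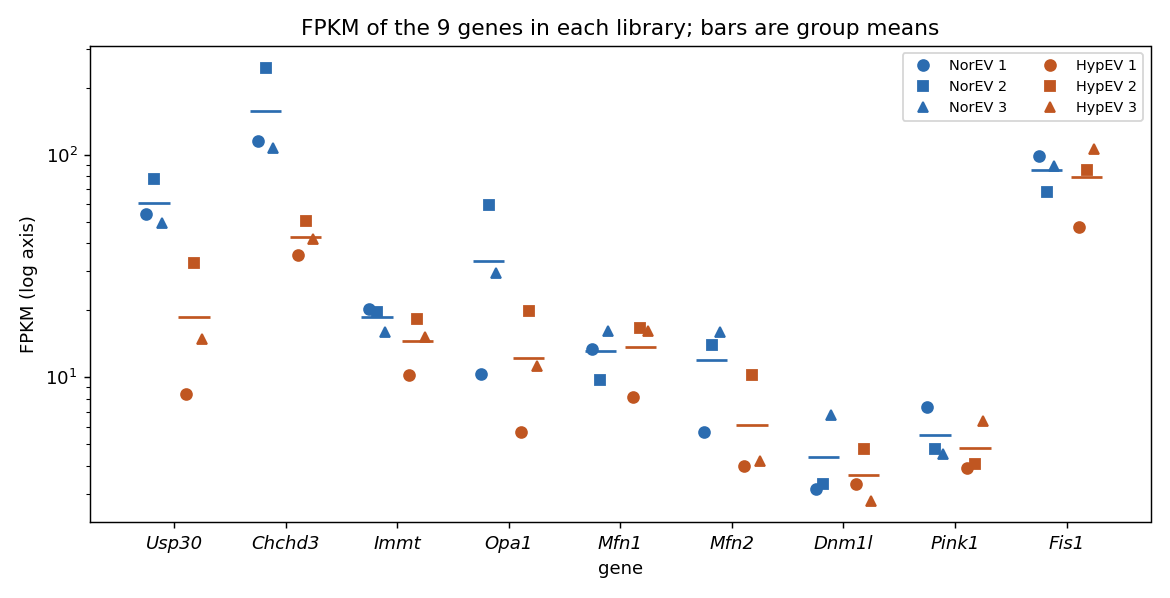
FPKM (log axis) of the 9 genes in each of the 6 libraries, with circles, squares and triangles for replicates 1, 2 and 3 and bars for group means. The NorEV points of Usp30 (49.6 to 78.2) and Chchd3 (107 to 247) lie above all their HypEV points (8.42 to 32.6 and 35.5 to 50.4), while the groups of the other 7 genes overlap.

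Chchd3, which codes for MIC19, was the most abundant of the 9 genes in NorEV. The gene spans 269285 bases of chromosome 6, from 32790976 to 33060260 (ENSMUSG00000053768, minus strand), but its longest transcript has 1550 bases. It stood at 116, 247 and 107 FPKM across NorEV, and at 35.5, 50.4 and 42.0 across HypEV, with every HypEV library below every NorEV library. NorEV 2 stood far above the other NorEV libraries, and the means were 157 ± 78.4 and 42.7 ± 7.46 FPKM (SD, n = 3). The reads behind them numbered 197, 541 and 247 across NorEV, and 118, 113 and 86 across HypEV. Against the coding median Chchd3 stood at 17.3, 34.1 and 13.0 across NorEV, and at 10.1, 6.13 and 8.31 across HypEV. It remained at or above the percentile 99.1 of protein-coding genes in every library, HypEV included. The other 7 genes named Chchd with a number were far lower in NorEV, the next being Chchd7 with a mean of 9.01 FPKM; this group too was looked up after the values were seen.

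Immt, which codes for MIC60, the partner of MIC19 in MICOS, lies on the same chromosome from 71831331 to 71877388 (plus strand). It measured 20.3, 19.7 and 16 FPKM over the NorEV libraries and 10.2, 18.3 and 15.2 over the HypEV libraries, which overlapped. Against the coding median it stood at 2.56 ± 0.554 in NorEV and 2.71 ± 0.426 in HypEV, also with overlap. Chchd3 was above Immt in every library, by 5.74, 12.5 and 6.67 times in NorEV and by 3.48, 2.75 and 2.76 times in HypEV. The longest transcript of Immt shares stretches of 100 bases or more at over 90% identity with transcripts of 1641 other genes. The longest stretch has 194 bases, 5.58% of the transcript. How far these stretches affect the value of Immt was not tested, so that value stays uncertain.

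Opa1, the inner membrane fusion GTPase, had the largest spread relative to its mean within NorEV (coefficient of variation 74.8%). It lies on chromosome 16 from 29579334 to 29654884 (plus strand) and has the longest transcript of the 9 genes (6230 bases). It stood at 10.4, 59.7 and 29.5 FPKM across NorEV, and at 5.70, 19.8 and 11.2 across HypEV. NorEV 1 was below HypEV 2 and HypEV 3, so the groups overlapped, and the means of 33.2 ± 24.9 and 12.2 ± 7.09 FPKM carry large errors. The reads were 71, 526 and 275 across NorEV, and 76, 178 and 92 across HypEV. Relative to the coding median, NorEV 1 (1.55) was the lowest of all 6 libraries and NorEV 2 (8.25) the highest, with HypEV at 1.62 to 2.40.

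Of the mitofusins, Mfn1 did not follow Opa1. Mfn1 (chromosome 3, 32529465 to 32579239, plus strand) measured 13.4, 9.77 and 16.1 FPKM over the NorEV libraries and 8.19, 16.7 and 16.1 over the HypEV libraries, with nearly equal means of 13.1 ± 3.19 and 13.7 ± 4.74. Against the coding median it was higher in each HypEV library (2.32, 2.03 and 3.19) than in any NorEV library (2.0, 1.35 and 1.97), though HypEV 2 and NorEV 1 were close. This separation is absent in FPKM.

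Mfn2 (chromosome 4, 147873599 to 147904704, minus strand), which also tethers mitochondria to the endoplasmic reticulum, stood at 5.69, 14.0 and 16 FPKM across NorEV, and at 3.98, 10.2 and 4.19 across HypEV. The means were 11.9 ± 5.48 and 6.12 ± 3.53 FPKM, with overlap. They rested on 27, 86 and 104 reads across NorEV, and 37, 64 and 24 across HypEV. Relative to the coding median Mfn2 stood at 1.58 ± 0.633 in NorEV and 1.07 ± 0.213 in HypEV, also with overlap. Mfn1 exceeded Mfn2 by 2.36, 0.697 and 1.01 times in NorEV and by 2.06, 1.64 and 3.85 times in HypEV, so Mfn2 was the higher mitofusin in NorEV 2 alone.

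The fission genes lay at opposite ends of the range. Fis1 (chromosome 5, 136953275 to 136966234, plus strand) measured 98.5, 67.9 and 89.6 FPKM over the NorEV libraries and 47.3, 85.4 and 106 over the HypEV libraries, and HypEV 3 was the highest of all 6 libraries. Its means were 85.3 ± 15.7 and 79.6 ± 29.9 FPKM. Against the coding median it stood at 9.38 to 14.7 in NorEV and 10.4 to 21 in HypEV, and its percentile among coding genes was 99.2 to 99.9. In HypEV, Fis1 alone made up 37.4%, 35.2% and 48.5% of the summed FPKM of the 9 genes, against 29.9%, 13.5% and 26.8% in NorEV. Usp30 and Chchd3 together made up 51.8%, 64.5% and 46.7% of that sum in NorEV and 34.7%, 34.3% and 26.0% in HypEV.

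Dnm1l (chromosome 16, 16312230 to 16358959, minus strand), which codes for the GTPase DRP1, was the lowest of the 9 genes by mean in both groups. It stood at 3.15, 3.30 and 6.74 FPKM across NorEV, and at 3.33, 4.76 and 2.79 across HypEV, below the coding median in all 6 libraries. The means were 4.40 ± 2.03 and 3.63 ± 1.02 FPKM, with overlap. Its level was 0.0320, 0.0487 and 0.0752 of that of Fis1 in NorEV and 0.0704, 0.0558 and 0.0263 in HypEV. Reads could not be recovered as whole numbers for Dnm1l, so it did not enter the test on reads.

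**Figure D2:**
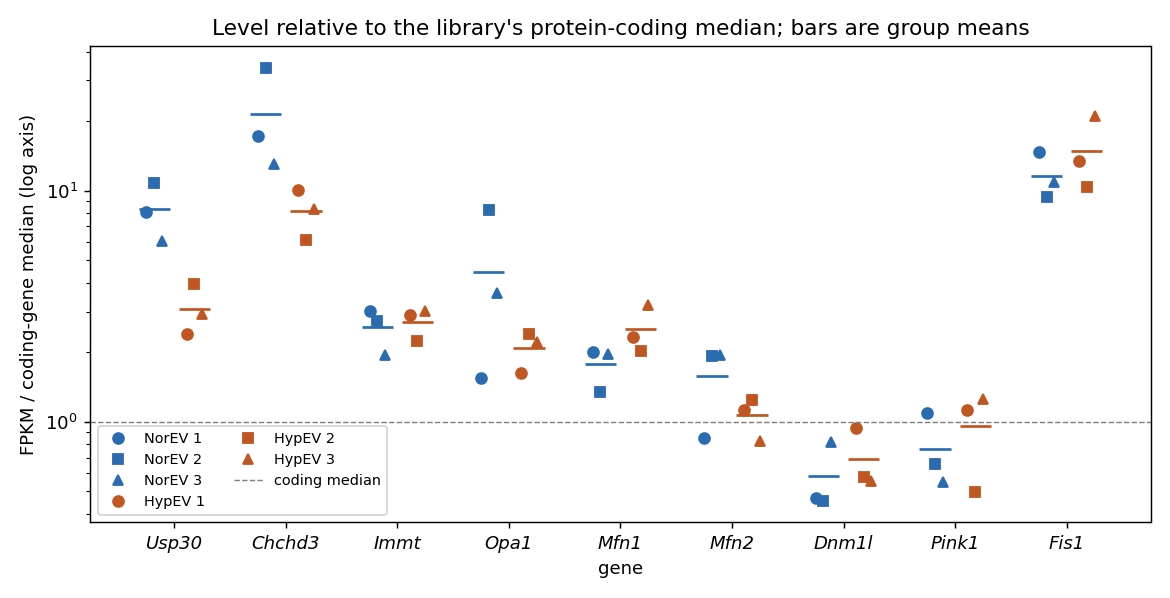
FPKM of each gene divided by the protein-coding median of the same library (log axis), with a dashed line at that median, points for the 6 libraries and bars for group means. Usp30 and Chchd3 stay lower in HypEV on this scale, Mfn1 is slightly higher, and Dnm1l lies below the line in every library.

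By NorEV mean the order was Chchd3, Fis1, Usp30, Opa1, Immt, Mfn1, Mfn2, Pink1 and Dnm1l. By HypEV mean it was Fis1, Chchd3, Usp30, Immt, Mfn1, Opa1, Mfn2, Pink1 and Dnm1l. Of neighbours in the NorEV order, Chchd3 and Fis1 did not overlap, with Chchd3 at 107 or more and Fis1 at 98.5 or less, while every later neighbour pair overlapped. Of neighbours in the HypEV order, Chchd3 (35.5 or more) and Usp30 (32.6 or less) did not overlap, and every other neighbour pair did. These ranges pool libraries with different totals, so a pair that overlaps can still keep its order within every library. Fis1 was above Chchd3 in HypEV 1 (47.3 against 35.5), HypEV 2 (85.4 against 50.4) and HypEV 3 (106 against 42.0).

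In the limma fit over all genes, on log2(FPKM + 1), the log2 fold change of HypEV over NorEV was -1.82 ± 0.52 (SE) for Usp30 and -1.76 ± 0.46 for Chchd3. It was -1.22 ± 0.68 for Opa1 and -0.86 ± 0.57 for Mfn2. The remaining 5 lay between -0.36 ± 0.40 (Immt) and 0.02 ± 0.45 (Mfn1). Relative to the median of all tested genes these became -1.38 for Usp30, -1.32 for Chchd3, -0.77 for Opa1 and -0.41 for Mfn2, while Immt (0.08), Mfn1 (0.46), Dnm1l (0.26), Pink1 (0.27) and Fis1 (0.28) turned or stayed positive. The median over the 9 genes was -0.36, and it changed sign under 3 other scalings: 0.09 when library medians were set equal, 0.05 when quantiles were, and 0.06 for totals that omit the family.

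Of the 9 genes 0 were called at an adjusted p under 0.05, where 0.0159% of all tested genes were. At an unadjusted p under 0.05, 2 were lower (Usp30 and Chchd3) and 0 higher, where 6.13% of all tested genes were lower and 0.635% higher. The groups did not overlap in FPKM for the same 2 genes, lower in HypEV, against 10.8% of tested genes that were lower without overlap and 1.1% that were higher. Relative to the coding median, 2 genes were lower without overlap (6.1% of all) and 1, Mfn1, was higher (4.28%). limma-voom on the recovered reads called Usp30 and Chchd3 lower, 2 of the 8 genes it could test, where it called 0.546% of all genes. With that family omitted from the totals it called the same 2, where it called 0.142% of all genes. In limma, 0 of the 20356 protein-coding genes tested were called. At an unadjusted p under 0.05, 865 of them were lower and 33 higher, and 2619 were lower without overlap in FPKM. Since the 9 genes were picked with this contrast known, nothing is read from these counts.

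The limma-voom calls, with the family omitted as an alternative chosen after seeing the data, changed when a library was left out. With the family omitted and 1 library left out at a time, Usp30 was called in 3 of 6 runs and Chchd3 in 1 of 6. Usp30 lost its call without NorEV 2, HypEV 1 or HypEV 3. Chchd3 kept it only without NorEV 3. The log2 fold change stayed between -1.74 and -1.20 for Usp30 and between -1.63 and -0.95 for Chchd3.

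Genes that act with the 9 were taken from 6 lists of 82 genes, of which all 82 were tested. None was called in limma (adjusted p under 0.05), and limma-voom called 0 of the 74 it could test, with or without the Gm23935 family in the totals. At an unadjusted p under 0.05, 1 was lower and 0 were higher, where 6.13% of all tested genes were lower and 0.635% higher. The fold change was negative for 72 and positive for 10, and over all tested genes for 33032 and 11093, with a median log2 value of -0.43 beside -0.44 for all tested genes, and 43 lay above the latter. The groups did not overlap for 8, all lower in HypEV, where 10.8% of all tested genes were lower without overlap. By mean the partner genes reached 36.7 FPKM in NorEV at most, below Usp30, Chchd3 and Fis1. In HypEV they reached 31.2 FPKM, above Usp30 (18.6) but below Chchd3 (42.7) and Fis1 (79.6). Their median was 9.59 FPKM in NorEV and 7.11 in HypEV.

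**Figure D3:**
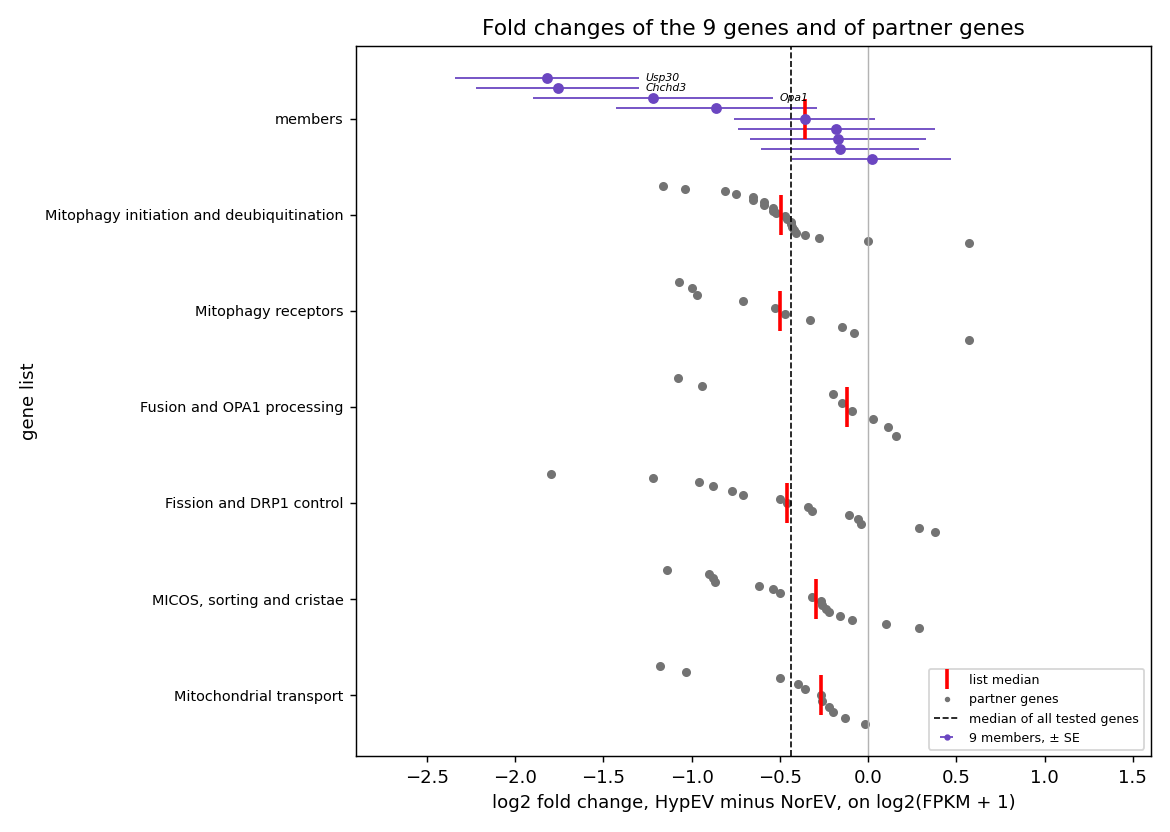
Log2 fold changes of HypEV over NorEV, on log2(FPKM + 1), for the 9 genes (with SE bars) and for the genes of the 6 partner lists, with red ticks at list medians and a dashed line at the median of all tested genes (-0.44). List medians lie between -0.50 and -0.12, and Gdap1l1 (-1.80) is the only partner gene near Usp30 and Chchd3.

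The 22 genes of mitophagy initiation (among them autophagy adaptors, other deubiquitinases and import receptors) had a median log2 fold change of -0.49, with 20 negative and 2 positive. The 3 with the smallest p did not pass. The import subunit Tomm7, which helps to stabilise PINK1, had 28.1 ± 9.63 FPKM in NorEV and 15.6 ± 5.32 in HypEV (-0.81 ± 0.43 SE). The autophagy receptor Nbr1 had 14.0 ± 4.74 and 6.97 ± 4.59 FPKM, and the import receptor Tomm22 had 4.22 ± 1.36 and 1.64 ± 1.44, with a 0 in HypEV 2.

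The 10 mitophagy receptors had a median of -0.50, with 9 negative. Fundc1, a receptor of the outer membrane that acts at low oxygen, stood at 8.77, 6.42 and 7.09 FPKM across NorEV, and at 2.59, 3.84 and 2.67 across HypEV, without overlap (-1.07 ± 0.49 SE, adjusted p = 0.72, limma). Bnip3, a receptor whose gene is a known HIF target, had 10.9 ± 3.10 and 5.60 ± 3.45 FPKM, and Bcl2l13 had 11.4 ± 3.89 and 5.95 ± 4.45.

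The 8 genes of fusion and OPA1 processing had the highest list median, -0.12, with 5 negative and 3 positive. Oma1, the protease that cuts OPA1 under stress, measured 31.1, 28.8 and 25.2 FPKM over the NorEV libraries and 8.78, 20.2 and 11.9 over the HypEV libraries, and the groups did not overlap. It was the partner gene with an unadjusted p under 0.05 and did not pass (-1.08 ± 0.42 SE, adjusted p = 0.72, limma). Stoml2, an inner membrane scaffold, was nearly level at 19.6 ± 1.94 and 16.9 ± 0.792 FPKM, and Pld6, a mitochondrial phospholipase, had 3.91 ± 2.20 and 2.50 ± 3.66.

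The 15 fission genes had a median of -0.46, with 13 negative. Gdap1l1 stood at 4.44, 11.1 and 11.9 FPKM across NorEV, and at 1.51, 6.99 and 0 across HypEV, which overlapped (-1.80 ± 0.82 SE). Dnm2, the dynamin of endocytosis also placed in fission, had 22.8 ± 5.02 and 11.2 ± 9.26 FPKM. Sh3glb1, which bends membranes, had 5.56 ± 2.52 and 2.35 ± 1.09 FPKM, without overlap in FPKM. It had 3.38 FPKM in NorEV 3, where the coding median was 8.21, and 2.8 in HypEV 3, where it was 5.05. Relative to that median its groups therefore overlapped.

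The 16 genes of MICOS, outer membrane sorting and cristae had a median of -0.29, with 14 negative. Samm50, the sorting channel that binds MICOS, measured 22.4, 10.6 and 25.2 FPKM over the NorEV libraries and 3.35, 29.4 and 7.24 over the HypEV libraries, so its highest and its lowest library were both HypEV. Dnajc11, a chaperone bound to MICOS, had 11.4 ± 2.22 and 7.88 ± 3.76 FPKM, and Atp5e, a subunit of ATP synthase, 7.06 ± 3.83 and 3.89 ± 4.33. Chchd6, the MICOS subunit most like Chchd3, stood at 3.42, 11.6 and 9.69 FPKM across NorEV, and at 6.76, 9.05 and 5.31 across HypEV; it falls outside the rule and was picked as the relative of Chchd3.

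The 11 genes of mitochondrial transport had a median of -0.27, all negative. The motor Kif5b measured 6.22, 8.33 and 6.21 FPKM over the NorEV libraries and 1.47, 2.64 and 3.64 over the HypEV libraries, without overlap (-1.18 ± 0.53 SE, adjusted p = 0.72, limma). Miga2, an outer membrane protein, had 12.4 ± 2.99 and 5.73 ± 2.49 FPKM, without overlap. The motor adaptor Trak1 had 19.1 ± 1.94 and 14.7 ± 8.71 FPKM.

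Averaged over the 9 genes and centred on 0, the log2 profile was 0.13, 0.54 and 0.42 in NorEV and -0.84, 0.06 and -0.30 in HypEV. The coding genes nearest to it, of 6704 with a mean of at least 10 FPKM, were Trim9, Naaladl2, Mycbpap, Gucy1b2 and Unc80, at root mean square distances of 0.0479 to 0.0664 log2 units over 6 libraries. The 9 genes themselves lay at 0.260 (Immt) to 0.663 (Opa1) from their own mean, where the median of the 6704 genes lay at 0.440. The 5 genes were picked as the nearest of 6704, so nothing is read from the members lying farther. All these points share the library totals. HypEV 1 and HypEV 3 were lowest both in the profile and in coding median, while HypEV 2 had the highest coding median and a profile value below all NorEV libraries.

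**Figure D4:**
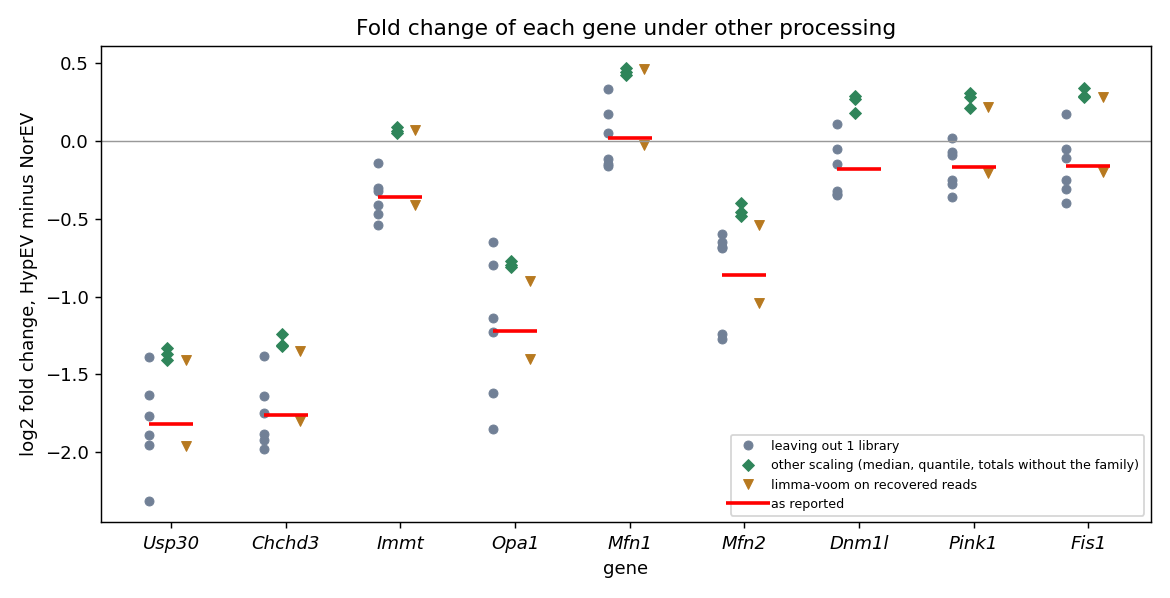
Log2 fold change of HypEV over NorEV for each gene as reported (red bar) and with 1 library left out, with other scalings or with limma-voom on reads. All points of Usp30, Chchd3, Opa1 and Mfn2 lie below 0, while those of the other 5 genes fall on both sides of it.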

How the data were processed

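RNA of sEV was measured in 3 NorEV and 3 HypEV libraries, grouped by the titles in the labels. Per the labels' protocols, RNA was harvested in Trizol and libraries were made with an Epibiotek long RNA kit. The authors deposited 1 table of FPKM per library, named for HTSeq. The aligner, build, annotation and use of strand are not given in the sources used here. Of 53379 identifiers, 53274 were in GENCODE M21.

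From the deposited FPKM and the longest transcript of each gene, 96% of values above 0 came out as whole reads (tolerance 0.01 reads). The main test was two-sided and used the trended eBayes of limma 3.58.1 in R 4.3.3. It was fitted on log2(FPKM + 1) over the 44125 genes whose 6 libraries averaged 1 FPKM or more, under Benjamini-Hochberg adjustment over all of them. limma-voom used 42345 genes with whole reads. Near-identical transcripts were found with blastn 2.17.0 (over 90% identity). The Gm23935 family covers 80% or more of that gene.

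The members, the lists and the tests were chosen with earlier results of these data known. All 9 members are named, and of each of the 6 partner lists the called genes or the 3 of smallest p. The 5 most similar genes were named by distance. Other scalings, pseudocount, filters, a variance without trend, a replicate block and leaving out each library were tried. The fits were also run on simulated reads that left out the Gm23935 family, so that run cannot show how the family's share affects them. Tables and plots came from Python 3.11.15, pandas 2.3.3 and matplotlib 3.10.9. RefSeq promoter windows matched 9 of 9 members by symbol. Of the partner genes, only those the rule names and Chchd6 are given with values.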

Additional observations from a re-analysis of the deposited data

How the results depend on the processing

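Usp30, Chchd3, Opa1 and Mfn2 kept a negative fold change under every alternative run. In limma with 1 library left out it ran from -2.31 to -1.39 for Usp30, -1.98 to -1.38 for Chchd3, -1.85 to -0.65 for Opa1 and -1.27 to -0.60 for Mfn2. In limma-voom without the Gm23935 family and with 1 library left out, the value nearest 0 was, without NorEV 2, -1.20 for Usp30, -0.95 for Chchd3 and -0.33 for Opa1, and, without NorEV 3, -0.27 for Mfn2. The other 5 genes changed sign. Centred on library medians, Immt was at 0.09, Dnm1l at 0.27, Pink1 at 0.28 and Fis1 at 0.29. After quantile normalization they were at 0.05, 0.29, 0.31 and 0.34, and with totals that omit the Gm23935 family at 0.06, 0.18, 0.21 and 0.28. In limma-voom without that family, chosen after seeing the data, Immt was at 0.07, Pink1 at 0.22 and Fis1 at 0.28. In limma-voom on all recovered reads Mfn1 was at -0.03. In limma with 1 library left out the ranges were -0.16 to 0.33 for Mfn1, -0.36 to 0.02 for Pink1, -0.35 to 0.11 for Dnm1l and -0.40 to 0.17 for Fis1. In limma-voom without the family they reached 0.63 for Mfn1 (without NorEV 3) and, without HypEV 2, 0.60 for Pink1 and 0.43 for Fis1.

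The 7 calls over all genes became 0 with median centring, a pseudocount of 0.1, no filter, no trend or a replicate block. They also became 0 with any 1 library left out. There were 5 calls with quantile normalization, 7 with totals that omit the family and 7 with a filter of at least 5 FPKM. limma-voom made 231 calls and, without the family, 60. Of the 8 members it could test, limma-voom called 2 either way. With the family omitted and 1 library left out, it called 0 to 2. Every limma alternative called 0 members. The cause was not tested. Whether same-numbered libraries share a culture or preparation is not given. Their deviations from the group means correlated at 0.0446, 0.102 and -0.0582, and those of unlike-numbered pairs at -0.145 to 0.106. With 3 libraries per group these values cannot decide it. Depth limits Pink1, with 14 to 20 reads per library, and also Mfn2, with 24 to 104. A single read on a transcript of 1 kb amounted to 0.467 to 0.915 FPKM, so low values of partner genes can rest on few reads. For Dnm1l, reads could not be recovered as whole numbers.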

Other observations

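Genes next to Usp30 and Chchd3, looked up after their values were seen, are given as values. Alkbh2, a DNA repair gene on the strand opposite to Usp30 that shares 331 exonic bases with its longest transcript, measured 1.71, 4.62 and 12.5 FPKM over the NorEV libraries and 6.09, 9.03 and 12.7 over the HypEV libraries. Svop, also opposite and overlapping the Usp30 gene, stood at 7.31, 18.8 and 12.9 FPKM across NorEV, and at 15.1, 22.5 and 9.41 across HypEV. Ung, the next coding gene after Usp30, measured 34.6, 14.8 and 26.1 FPKM over the NorEV libraries and 25.8, 27.7 and 38.1 over the HypEV libraries. The groups of these 3 overlapped. Dao, the coding gene before Usp30, measured 6.67, 7.91 and 11.4 FPKM over the NorEV libraries and 0.227, 6.05 and 5.89 over the HypEV libraries, without overlap in FPKM. Dao lay just below the coding median in NorEV 1 (6.67 against 6.72) and above it in HypEV 3 (5.89 against 5.05). Relative to that median its groups therefore overlapped. How the counting treated strand is not given in the sources used here, and reads on the shared bases cannot be told apart without it.

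Exoc4, the next coding gene after Chchd3 and a subunit of the exocyst, stood at 42.9, 36.2 and 36.1 FPKM across NorEV, and at 15.8, 41.4 and 23.4 across HypEV, which overlapped. Plxna4, on the other side, measured 3.20, 7.14 and 9.87 FPKM over the NorEV libraries and 2.76, 9.72 and 5.23 over the HypEV libraries. Inside Chchd3, Gm42895 on the same strand had 2.75 to 7.59 FPKM in NorEV and 2.18 to 8.31 in HypEV, far below Chchd3 in every library.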
